A study of Homo sapiens with 12 samples.

Results

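The 10 genes described here encode the 4 chains of platelet-derived growth factor (PDGFA, PDGFB, PDGFC and PDGFD), both PDGF receptors (PDGFRA and PDGFRB) and 4 surface proteins by which stellate cells and fibroblasts are recognised (THY1, FAP, NGFR and NT5E). They were chosen by gene symbol, and all 10 had a row in each of the 2 tables, which hold 60612 genes for HCCLM3 and 32507 for LX2. RNA was sequenced from 12 libraries in 4 groups of 3: HCCLM3 with LX2, HCCLM3 alone, LX2 with HCCLM3, and LX2 alone. HCCLM3 is a human hepatoma line and LX2 a human hepatic stellate line. All 4 groups are labelled wild type and were kept in a tumor-on-a-chip device, with no agent and no culture time given. No source used here says how the lines were parted for sequencing. Nor is it stated that the replicates of a group were grown apart, so the p-values below reflect library-to-library spread that may be only technical. Total counts ran over 65675929 to 68178411 in HCCLM3 with LX2, 68088914 to 77712308 in HCCLM3 alone, 64438991 to 69891842 in LX2 with HCCLM3 and 61836616 to 65314354 in LX2 alone.

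PDGF chains pair into secreted dimers. Dimers of PDGFA and PDGFB are ripened inside the cell by furin-like proteases, whereas PDGFC and PDGFD leave the cell in a latent form that plasminogen activators and other extracellular proteases open. PDGFRA binds dimers of the A, B and C chains, and PDGFRB chiefly those of the B and D chains. In liver, quiescent stellate cells that turn into matrix-making myofibroblasts gain PDGFRB, and the PDGFB dimer is among their strongest mitogens.

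The labels were set against marker genes. Vimentin (VIM), a filament of mesenchymal cells, stood at 167 ± 15.9 FPKM in LX2 with HCCLM3 and 176 ± 18.7 FPKM in LX2 alone (SD, n = 3 each). FPKM is the fragment count scaled by gene length and library size, as deposited. VIM was also present in HCCLM3, with 673, 703 and 1413 counts in HCCLM3 alone beside 74615, 58578 and 75355 in LX2 alone. Of 26 markers of stellate cells and fibroblasts, LX2 alone had 8 at 1 FPKM or more and HCCLM3 alone had 6. As many as 9 of the 26 were at 0 counts in LX2 alone, among them COL1A2, COL6A3, SPARC and LRAT. In HCCLM3, KRT8 stood at 332 ± 55 FPKM with LX2 and 555 ± 29.2 FPKM alone. Of 12 epithelial and hepatoma line markers, HCCLM3 alone had 8 at 1 FPKM or more and LX2 alone had 3. The hepatoma marker GPC3 was at 0 counts in all 6 HCCLM3 libraries. The names of the lines are therefore those of the labels. Levels of the 2 lines come from separate tables, and any level set across lines is a description.

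In LX2, co-culture went with a turnover of the PDGF ligands: PDGFB was 1.59-fold higher and PDGFC 2.19-fold lower, while PDGFA did not pass the test. Transcripts of NT5E were 2.34-fold lower and those of PDGFRB 1.22-fold lower. In HCCLM3, PDGFB was 2.23-fold higher with LX2 and no other member passed. The calls of PDGFRB in LX2 and of PDGFB in HCCLM3 were each lost in 5 of the 6 fits that left out 1 library. In bulk RNA, fewer expressing cells and less RNA per cell cannot be told apart. Of the 10 genes, 5 had enough counts to be tested in HCCLM3 and 7 in LX2. With edgeR's quasi-likelihood test and a Benjamini-Hochberg adjusted p under 0.05, 1 of the 5 was called higher and 0 lower in HCCLM3, where 21.7% of all 18045 genes tested were called, 10.1% higher and 11.6% lower. In LX2, 1 of the 7 was called higher and 3 lower, where 31.9% of all 19671 genes tested were called, 15.4% higher and 16.6% lower. The unadjusted p fell under 0.05 for no further member in either line, and DESeq2 called the same numbers of members. The median log2 fold change was 0.071 over the 5 members tested in HCCLM3 and -0.49 over the 7 in LX2, beside 0.033 and 0.015 over all genes tested.

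**Figure D1:**
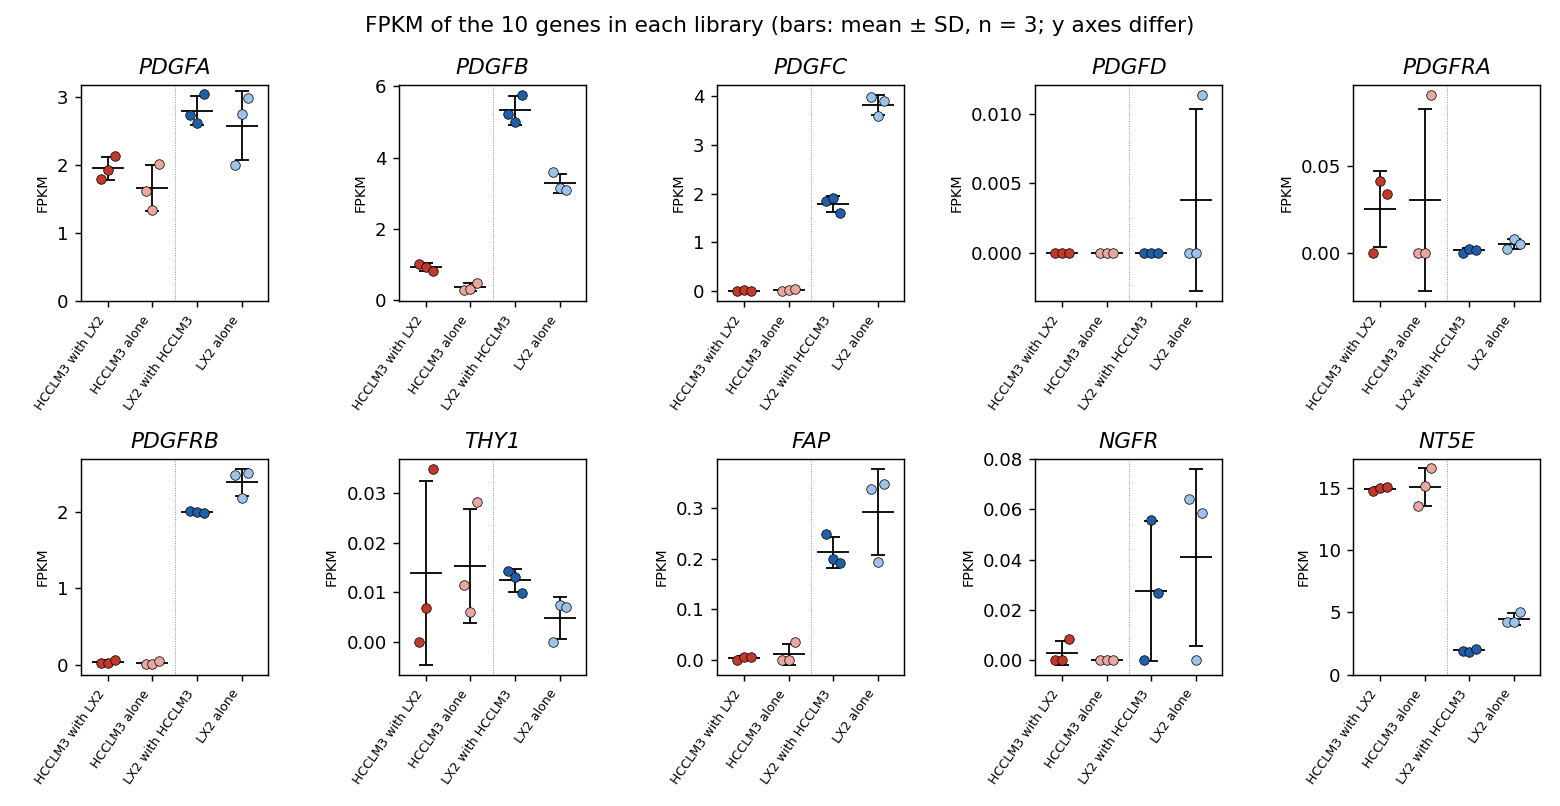
FPKM of each of the 10 genes in each of the 12 libraries, with 1 panel a gene, y axes that differ between panels, points for libraries and bars for the mean ± SD (n = 3). NT5E is the most abundant of the 10 in HCCLM3, near 15 FPKM, while PDGFC, PDGFRB and FAP are near 0 there and present in LX2.

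PDGFA (chromosome 7, 497258 to 520208, minus strand; ENSG00000197461) encodes the A chain, which signals through PDGFRA. It had 1.80, 1.93 and 2.13 FPKM in HCCLM3 with LX2, against 1.62, 1.34 and 2.01 FPKM in HCCLM3 alone. In LX2 it had 2.74, 2.62 and 3.04 FPKM with HCCLM3, against 2.01, 2.75 and 2.99 FPKM alone. The groups overlapped in both lines. The log2 fold change was 0.071 in HCCLM3 (95% interval -0.34 to 0.49) and 0.090 in LX2 (-0.29 to 0.47), with edgeR adjusted p of 0.810 and 0.713.

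PDGFB (chromosome 22, 39223359 to 39244982, minus strand; ENSG00000100311) encodes the B chain, the ligand that binds both receptors. In LX2 with HCCLM3 it had 5.21, 5.0 and 5.77 FPKM (1594, 1633 and 1919 counts), against 3.59, 3.16 and 3.09 FPKM (1117, 929 and 959 counts) in LX2 alone. Every co-cultured library lay above every library alone. The log2 fold change was 0.67 (SE 0.091, 95% interval 0.45 to 0.89, edgeR adjusted p = 0.00221), and the adjusted p stayed between 0.00424 and 0.0115 when any 1 library was left out. The antisense gene AL031590.1, which shares no exon base with PDGFB, had 20, 4 and 11 counts in LX2 with HCCLM3 and 12, 4 and 20 in LX2 alone. The 8 platelet and megakaryocyte markers summed to 361 to 413 counts per library in LX2 with HCCLM3 and 143 to 237 in LX2 alone, and 2 of 3 tested were called higher. Over all genes tested in LX2, 15.4% were called higher. The integrin subunit ITGA2B had 201, 177 and 229 counts with HCCLM3, against 136, 93 and 95 alone (log2 fold change 0.80, edgeR adjusted p = 0.0236). The platelet receptor subunit GP1BA had 150, 114 and 132 counts with HCCLM3, against 70, 25 and 63 alone (1.23, edgeR adjusted p = 0.0479). PF4 and GP9 were at 0 counts in both LX2 groups. The part of these markers in the PDGFB result in LX2 was not tested.

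In HCCLM3 with LX2, PDGFB had 1.03, 0.943 and 0.815 FPKM (326, 308 and 260 counts), against 0.288, 0.331 and 0.502 FPKM (107, 120 and 163 counts) in HCCLM3 alone. The groups did not overlap there either. edgeR put the log2 fold change at 1.15 (SE 0.251, 95% interval 0.56 to 1.75, edgeR adjusted p = 0.0204). The call was lost in 5 of the 6 fits that left out 1 library. The edgeR adjusted p was 0.0673 without HCCLM3 with LX2 replicate 1, 0.0585 without replicate 2 and 0.0502 without replicate 3 of that group. It was 0.0557 without HCCLM3 alone replicate 1, 0.0619 without replicate 2 and 0.0167 without replicate 3 of HCCLM3 alone, and the log2 fold change lay between 1.01 and 1.40.

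Blood cell genes moved in the same HCCLM3 libraries as PDGFB, where 21.7% of all genes tested were called, 10.1% higher and 11.6% lower. The 10 erythroid markers summed to 6575 to 9127 counts per library in HCCLM3 with LX2, against 0 to 6 in HCCLM3 alone, with 9 of 9 tested called higher and 7 of the 10 at 0 counts alone. The 11 granulocyte precursor markers summed to 778 to 1082 counts, against 0 to 4, with 9 of 9 tested called higher and 10 of the 11 at 0 counts alone. Genes at or near 0 counts alone entered the test only through the libraries with LX2. For them a call could only be higher, so these numbers of calls are not comparable with the share over all genes. The 10 leukocyte markers summed to 7901 to 8531 counts, against 6187 to 6432, with 4 of 7 tested called higher. These were LAPTM5 (at 0 counts alone, log2 fold change 9.25, edgeR adjusted p = 0.00438), CD74 (3.62, adjusted p = 0.000637), LYZ (3.03, adjusted p = 0.00102) and RAC2 (0.44, adjusted p = 0.0302). The part of these blood cell genes in the PDGFB result was not tested. Platelets and endothelial cells are among the known sources of PDGFB. Of the 8 platelet and megakaryocyte markers, which summed to 174 to 189 counts with LX2 against 64 to 93 alone, 0 of 3 tested were called. All 3 estimates lay above 0: TUBB1 (log2 fold change 2.30, edgeR adjusted p = 0.0696), GP1BA (1.32, adjusted p = 0.110) and PF4 (0.53, adjusted p = 0.366). PPBP had 4, 0 and 0 counts with LX2 and 0 in each library alone, and GP9 was at 0 throughout. The 8 endothelial markers summed to 3924 to 4481 counts in HCCLM3 with LX2, against 8786 to 11762 alone, and CDH5, EMCN, ERG and TIE1 were at 0 in both groups. Transcripts typical of the partner were 41 genes with at least 20 FPKM in LX2 alone and under 0.1 FPKM in HCCLM3 alone. Their rise in HCCLM3 with LX2 over HCCLM3 alone, scaled by library totals, had medians of 0.103%, 0.189% and 0.157% of their level in LX2 alone. PDGFB itself stood at 3.28 FPKM in LX2 alone. The part of the platelet, endothelial and partner transcripts in the PDGFB result was not tested.

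PDGFC (chromosome 4, 156760454 to 156971799, minus strand; ENSG00000145431) encodes a latent chain that acts through PDGFRA once cleaved. In LX2 with HCCLM3 it had 1.84, 1.91 and 1.60 FPKM (846, 940 and 801 counts), against 3.98, 3.6 and 3.90 FPKM (1864, 1588 and 1818 counts) in LX2 alone. The groups lay far apart. The log2 fold change was -1.13 (SE 0.091, 95% interval -1.35 to -0.91, edgeR adjusted p = 0.000247), and with any 1 library left out the adjusted p lay between 0.000947 and 0.00202. In 1 fit that pooled the spread of both lines the fold change was nearly as large (-1.10) but the adjusted p was 0.305. In HCCLM3, PDGFC had 0, 8 and 0 counts with LX2, against 0, 4 and 22 alone, too few to test.

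PDGFD (chromosome 11, 103907189 to 104164379, minus strand; ENSG00000170962), the other latent chain and a ligand of PDGFRB, was close to undetected. It had 0 counts in 11 of 12 libraries and 4 counts in LX2 alone replicate 3. A count of 0 at these depths allows up to 0.0386 to 0.0485 CPM, the count scaled by the library total (3 counts of the library total, counting error only).

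The makeup of the ligand pool followed from these changes. In LX2 with HCCLM3, PDGFB made up 53.7 ± 1.52% of the summed FPKM of the 4 ligand genes, PDGFA 28.2 ± 0.906% and PDGFC 18.1 ± 2.42%. In LX2 alone PDGFC was the largest at 39.5 ± 1.91%, beside PDGFB at 33.9 ± 3.30% and PDGFA at 26.6 ± 4.90% (SD, n = 3 each). The sum itself was 9.91 ± 0.452 FPKM in LX2 with HCCLM3 and 9.69 ± 0.265 FPKM in LX2 alone, a difference within 1 SD. In HCCLM3, PDGFA led in both groups, with 67.5 ± 4.47% of the sum with LX2 and 81.2 ± 3.31% alone, while PDGFB had 32.3 ± 4.43% with LX2 and 18.1 ± 2.62% alone. The HCCLM3 sum was 2.89 ± 0.0548 FPKM with LX2 and 2.05 ± 0.454 FPKM alone.

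**Figure D2:**
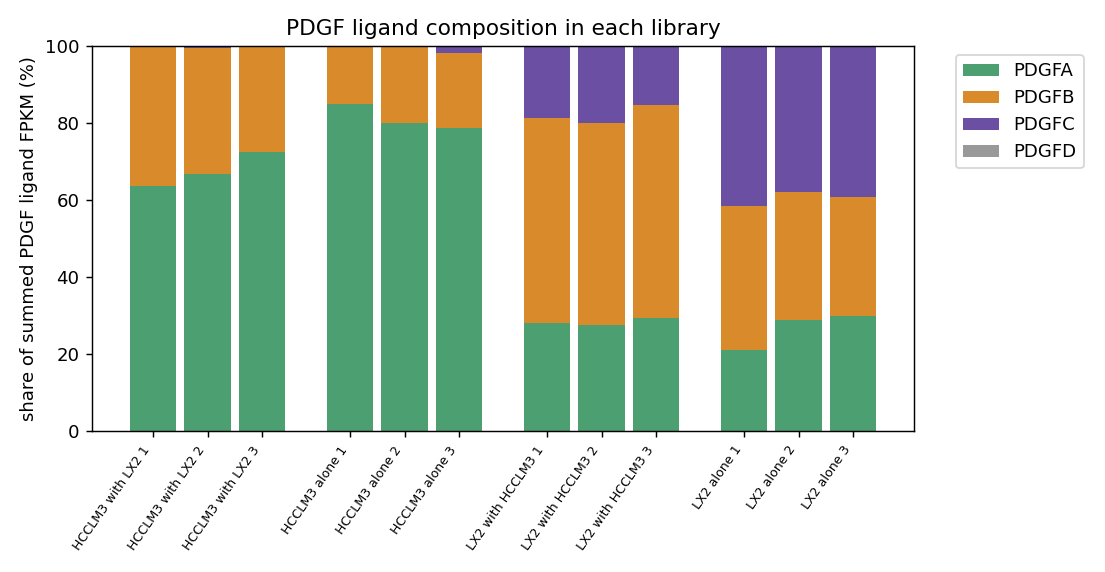
Share of the summed FPKM of PDGFA, PDGFB, PDGFC and PDGFD in each library, in percent, with 1 stacked bar a library. PDGFB takes over 50% in each LX2 library with HCCLM3 and under 40% in each LX2 library alone, and PDGFC is nearly absent from the HCCLM3 bars.

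PDGFRB (chromosome 5, 150113839 to 150155860, minus strand; ENSG00000113721), the receptor tyrosine kinase of activated stellate cells and pericytes, was the receptor expressed in LX2. It had 2.02, 1.99 and 1.98 FPKM (1103, 1167 and 1180 counts) in LX2 with HCCLM3, against 2.48, 2.18 and 2.5 FPKM (1379, 1144 and 1387 counts) in LX2 alone. The FPKM values did not overlap, but the counts did, since LX2 alone replicate 2 was the smallest library. The test gave a log2 fold change of -0.28 (SE 0.076, 95% interval -0.47 to -0.10, edgeR adjusted p = 0.0316), the smallest change among the calls. The edgeR adjusted p was 0.0780, 0.0818 and 0.0860 without LX2 with HCCLM3 replicate 1, 2 and 3. It was 0.0951, 0.0172 and 0.0975 without LX2 alone replicate 1, 2 and 3, so only the omission of replicate 2 kept the call. The limma test on log2(FPKM + 1) gave an adjusted p of 0.0779, and the edgeR fit over all 12 libraries 0.839.

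PDGFRA (chromosome 4, 54229280 to 54281977, plus strand; ENSG00000134853), the receptor for the A and C chains, was barely present in LX2. It had 0, 2 and 2 counts in LX2 with HCCLM3 and 2, 6 and 4 in LX2 alone, too few to test. In HCCLM3 it had 0, 33 and 26 counts with LX2, against 0, 0 and 71 alone, so that 1 library, HCCLM3 alone replicate 3, held all counts of its group. The log2 fold change of -0.41 had a 95% interval of -5.03 to 4.21 and an edgeR adjusted p of 0.904, and it turned to 7.29 without that library (adjusted p = 0.166). PDGFRB in HCCLM3 was at 10, 10 and 36 counts with LX2 and 4, 4 and 25 alone (log2 fold change 0.68, 95% interval -1.73 to 3.08, adjusted p = 0.682), and the estimate was 2.20 without HCCLM3 alone replicate 3 and -0.23 without HCCLM3 with LX2 replicate 3.

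In HCCLM3, PDGFRA and FAP had counts only in libraries that also held COL1A2 transcripts, while the other trace members did not keep to that pattern. COL1A1 had 21, 356 and 1448 counts in HCCLM3 with LX2 and 16, 20 and 541 in HCCLM3 alone. COL1A2 had 0, 320 and 853 counts with LX2 and 0, 0 and 502 alone. HCCLM3 alone replicate 3, with 502 counts of COL1A2, was also the library with 71 counts of PDGFRA, 25 of PDGFRB, 22 of PDGFC and 21 of FAP. HCCLM3 with LX2 replicate 3, with 853 counts of COL1A2, had 0 of PDGFC and 4 of FAP. At 0 counts of COL1A2, PDGFRB had 10 counts in HCCLM3 with LX2 replicate 1 and THY1 had 9 in HCCLM3 alone replicate 1. LUM, another matrix gene, had 1994, 1639 and 2285 counts with LX2 and 2798, 2921 and 2062 alone. The part of the matrix genes in the values of the members was not tested. LX2 had 4, 0 and 0 counts of COL1A2 with HCCLM3 and 0 in each library alone. COL3A1 had 300, 848 and 1011 counts in HCCLM3 with LX2 and 58, 39 and 112 alone, and was called higher by edgeR (log2 fold change 3.30, adjusted p = 0.0106). Of the stellate cell and fibroblast markers, 3 of 19 tested were called higher and 0 lower in HCCLM3: COL3A1, LRAT and BAMBI. Over all genes tested there, 10.1% were called higher and 11.6% lower.

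**Figure D3:**
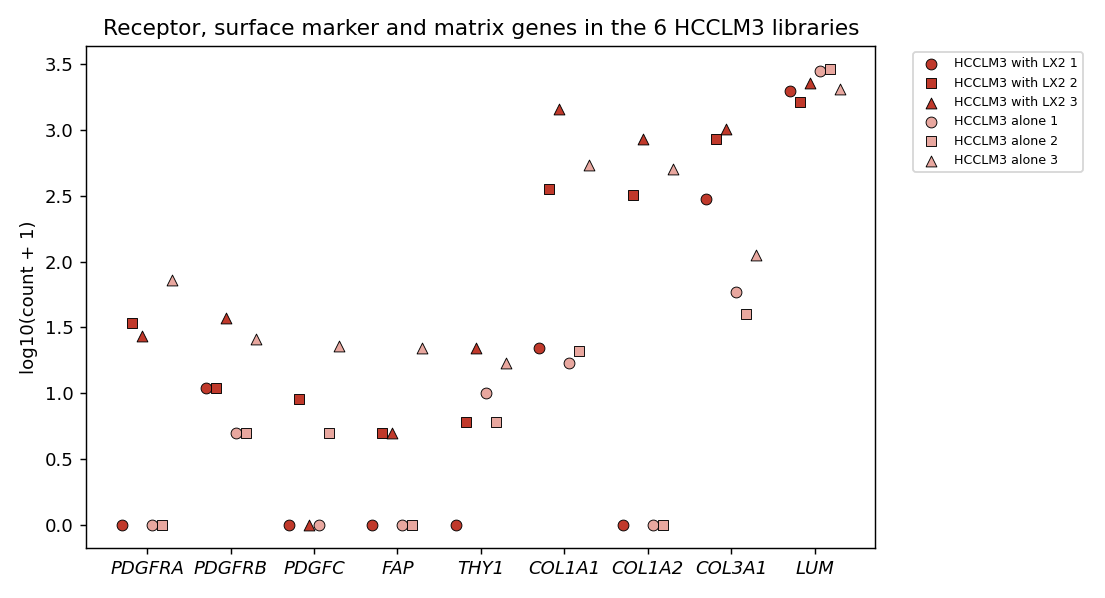
Counts of PDGFRA, PDGFRB, PDGFC, FAP, THY1 and 4 matrix genes in the 6 HCCLM3 libraries, as log10(count + 1), with colours for the groups and shapes for the replicate numbers. HCCLM3 alone replicate 3 (pale triangles) is at 502 counts of COL1A2, where the other libraries of its group are at 0.

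Among the surface proteins, NT5E carried the largest signal. NT5E (chromosome 6, 85449584 to 85495791, plus strand; ENSG00000135318) encodes CD73, the membrane enzyme that turns extracellular AMP into adenosine and a standard marker of mesenchymal stromal cells. In LX2 with HCCLM3 it had 1.94, 1.85 and 2.10 FPKM (675, 686 and 793 counts), against 4.23, 4.22 and 5.05 FPKM (1495, 1410 and 1777 counts) in LX2 alone. The groups were well separated. The log2 fold change was -1.23 (SE 0.0996, 95% interval -1.47 to -0.98, edgeR adjusted p = 0.000257), and the call held in every setting tried.

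In HCCLM3, NT5E was the most abundant of the 10 genes, at 14.8, 15 and 15.1 FPKM with LX2 and 13.5, 15.1 and 16.6 FPKM alone. These ranges overlapped. edgeR put the log2 fold change at -0.18 (95% interval -0.38 to 0.019, edgeR adjusted p = 0.175), and it was -0.0053 when libraries were scaled by their totals. That scaling moved the median of all genes in HCCLM3 to 0.21, against 0.033 with TMM, and called 2977 genes higher and 1039 lower, against 1829 and 2095 with TMM. The fall of NT5E in LX2 was therefore set against no call in HCCLM3, and the difference was tested directly over 12 libraries. The change with co-culture differed between the lines by 1.02 on the log2 scale, HCCLM3 minus LX2 (SE 0.125, 95% interval 0.74 to 1.29, edgeR adjusted p = 0.000225), and by 0.93 to 1.08 with any 1 library left out.

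Genes of the partner line were present in LX2 with HCCLM3, where 31.9% of all genes tested were called, 15.4% higher and 16.6% lower. CEACAM6, which is abundant in HCCLM3, had 774, 865 and 761 counts in LX2 with HCCLM3 and 0 in each library of LX2 alone. Of the 12 epithelial and hepatoma line markers, which summed to 10306 to 11537 counts per library with HCCLM3 and 10352 to 10905 alone, 6 of 9 tested were called higher and 1 lower (KRT18, log2 fold change -0.38, edgeR adjusted p = 0.000398), and 1 of 12 was at 0 counts with HCCLM3 against 7 of 12 alone. Tested markers at 0 counts alone entered the test only through the libraries with HCCLM3. For them a call could only be higher, so the 6 are not comparable with the share over all genes. For 57 genes with at least 20 FPKM in HCCLM3 alone and under 0.1 FPKM in LX2 alone, the rise in CPM over LX2 alone was taken. Its median in the 3 libraries of LX2 with HCCLM3 was 0.556%, 0.627% and 0.497% of the level in HCCLM3 alone. NT5E stood at 15.1 FPKM in HCCLM3 alone and at 4.50 FPKM in LX2 alone. PDGFB stood at 0.374 FPKM in HCCLM3 alone and at 3.28 FPKM in LX2 alone. Set across lines, these levels are a description. The part of the partner's genes in the LX2 results was not tested.

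FAP (chromosome 2, 162170684 to 162245151, minus strand; ENSG00000078098), a surface serine protease of activated fibroblasts, had 134, 115 and 114 counts in LX2 with HCCLM3, against 186, 102 and 190 in LX2 alone. LX2 alone replicate 2 had the fewest counts of all 6 libraries, so the groups overlapped. The test gave a log2 fold change of -0.49 (95% interval -1.11 to 0.13, edgeR adjusted p = 0.203), and without that library it was -0.71 (adjusted p = 0.0400). The antisense gene AC007750.1, which shares 638 exon bases with FAP, had 10, 0 and 9 counts with HCCLM3 and 6, 25 and 0 alone, and since the strand of counting is not given, reads of the pair cannot be told apart there. In HCCLM3, FAP had 0, 4 and 4 counts with LX2 and 0, 0 and 21 alone.

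THY1 and NGFR, both used to tell apart portal fibroblasts, stellate cells and other stromal cells, were near the detection limit in both lines. THY1 (chromosome 11, 119415476 to 119424985, minus strand; ENSG00000154096), the glycolipid-anchored protein CD90, had 0, 5 and 21 counts in HCCLM3 with LX2 and 9, 5 and 16 in HCCLM3 alone. In LX2 it had 8, 8 and 6 counts with HCCLM3 and 0, 4 and 4 alone. NGFR (chromosome 17, 49495293 to 49515008, plus strand; ENSG00000064300), the p75 neurotrophin receptor, had 0, 19 and 10 counts in LX2 with HCCLM3 and 21, 0 and 19 in LX2 alone. Its log2 fold change of -0.56 had a 95% interval of -3.92 to 2.79 (edgeR adjusted p = 0.801). The antisense gene AC006487.1, which shares 202 exon bases with NGFR, had 0, 8 and 0 counts in LX2 with HCCLM3 and 0, 0 and 3 in LX2 alone. As for FAP, reads of the pair cannot be told apart there. In HCCLM3 NGFR had 3 counts in 1 library with LX2 and 0 in the other 5 libraries.

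**Figure D4:**
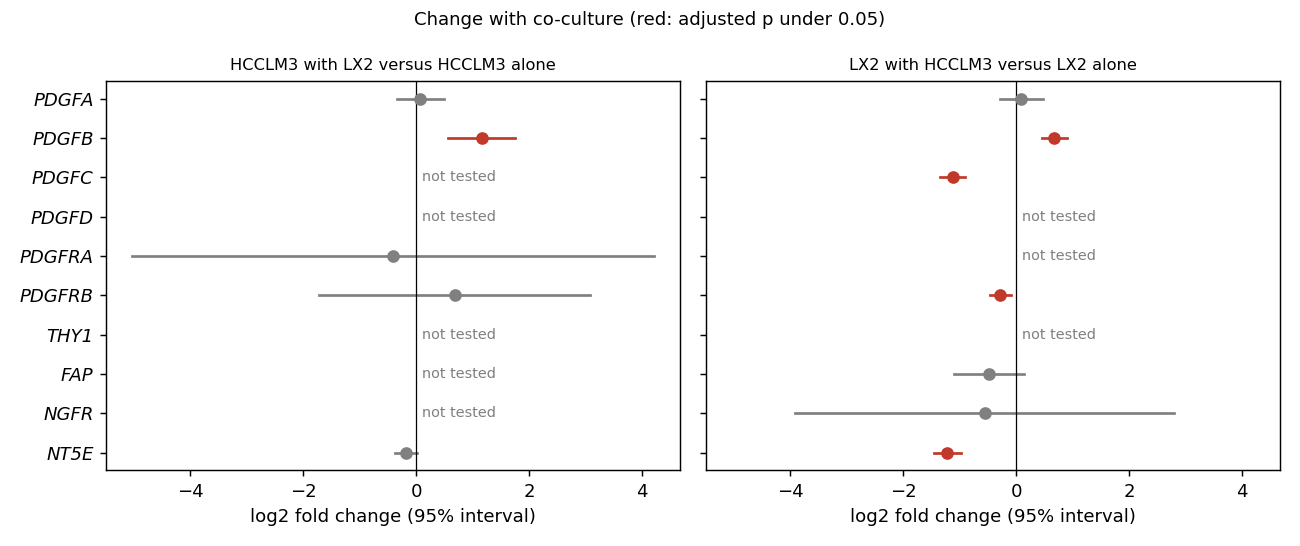
Log2 fold change of each tested gene with its 95% interval from edgeR, for HCCLM3 with LX2 over HCCLM3 alone (left) and LX2 with HCCLM3 over LX2 alone (right). Red marks an adjusted p under 0.05: PDGFB in both panels, and PDGFC, PDGFRB and NT5E, all below 0, in LX2.

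PDGFRB and NT5E were both called lower in LX2 with HCCLM3, though the PDGFRB call was lost in 5 of 6 fits that left out 1 library. RefSeq start-site windows were at hand for 5 of the 10 members, with 4 for PDGFA, 2 for PDGFRA and 1 each for PDGFD, PDGFRB and NT5E. Those of PDGFRB and NT5E are shown so that the start regions of a receptor and a surface enzyme can be compared. Each spans 250 bases before to 50 after the annotated start (GRCh38.p14), 5′ to 3′ on the strand of the gene, at chr5:150155796-150156095 (minus strand) for PDGFRB and chr6:85449833-85450132 (plus strand) for NT5E. The NT5E window lies wholly downstream of the start of that gene in the deposited table (85449584), and that of PDGFRB spans the table's start. Capitals mark matches, on either strand, to 3 motifs: the GC box, spelled GGGCGG and matched here on the opposite strand, the CCAAT box, spelled as its name, and the core of the cyclic AMP element, spelled TGACG. No match overlaps another.
PDGFRB: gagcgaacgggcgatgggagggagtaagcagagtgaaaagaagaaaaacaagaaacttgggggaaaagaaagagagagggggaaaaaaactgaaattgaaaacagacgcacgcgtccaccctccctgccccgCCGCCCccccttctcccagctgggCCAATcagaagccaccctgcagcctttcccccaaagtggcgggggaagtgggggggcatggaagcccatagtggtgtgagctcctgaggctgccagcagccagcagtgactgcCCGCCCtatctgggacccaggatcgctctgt
NT5E: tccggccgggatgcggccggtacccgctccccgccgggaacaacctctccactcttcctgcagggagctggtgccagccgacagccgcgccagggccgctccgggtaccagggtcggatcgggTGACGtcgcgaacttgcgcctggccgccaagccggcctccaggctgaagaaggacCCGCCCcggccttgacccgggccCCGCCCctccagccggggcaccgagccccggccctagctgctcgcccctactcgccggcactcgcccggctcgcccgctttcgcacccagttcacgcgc
Both windows held 2 GC boxes, a motif present in 45.0% of all 35116 RefSeq windows of this length. PDGFRB had 1 CCAAT box (in 34.6% of windows) and NT5E had 1 TGACG core (24.6%). Neither held the TATA box TATAAA (11.5%) or the hypoxia element core ACGTG (21.4%). The GC content was 59.3% for PDGFRB and 75% for NT5E, beside a median of 58.7%. These matches describe the letters and are not binding sites shown in these cells.

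The order of levels, in FPKM and thus per length, changed in LX2. With HCCLM3 it ran PDGFB (5.33 ± 0.396), PDGFA (2.80 ± 0.219), PDGFRB (2.0 ± 0.0182), NT5E (1.96 ± 0.126), PDGFC (1.79 ± 0.163) and FAP (0.213 ± 0.0304). In LX2 alone it ran NT5E (4.50 ± 0.475), PDGFC (3.83 ± 0.203), PDGFB (3.28 ± 0.268), PDGFA (2.58 ± 0.511), PDGFRB (2.38 ± 0.181) and FAP (0.292 ± 0.0850; SD, n = 3 each). PDGFRB and NT5E with HCCLM3, and PDGFA and PDGFRB alone, were neighbours within 1 SD of each other. In HCCLM3 the order was NT5E, PDGFA and PDGFB in both groups, with every other member under 0.05 FPKM on average.

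Set against the LX2 changes, those in HCCLM3 differed by a direct test only for NT5E among the 8 members tested over 12 libraries, where 20.7% of all 21959 genes tested were called, 9.39% higher and 11.3% lower. For PDGFB the difference was 0.45 on the log2 scale, HCCLM3 minus LX2 (95% interval -0.12 to 1.03, edgeR adjusted p = 0.261). Without HCCLM3 alone replicate 3 it was 0.71 (adjusted p = 0.0306), and that for PDGFRB was 2.46 (adjusted p = 0.0371), against 0.96 (adjusted p = 0.502) with all libraries. PDGFC fell in LX2 and was almost absent from HCCLM3, so its difference of -0.63 had a 95% interval of -3.57 to 2.31 (edgeR adjusted p = 0.836). The limma test on log2(FPKM + 1) turned that difference to 0.78 with an adjusted p of 6.27e-05.

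The genes around PDGF signalling were taken as whole lists. Of all genes tested, 21.7% were called in HCCLM3 (10.1% higher, 11.6% lower) and 31.9% in LX2 (15.4% higher, 16.6% lower). The list counts here and below stand beside these shares, and no list was tested as a set. Of 10 genes for ligand processing and co-receptors, 6 were called higher and 2 lower in HCCLM3 with LX2 (median log2 fold change 0.51), and 4 higher and 3 lower in LX2 with HCCLM3 (median -0.19). PLAT, the tissue plasminogen activator that opens PDGFC, had 165, 243 and 174 counts in LX2 with HCCLM3, against 40, 48 and 53 in LX2 alone (log2 fold change 1.93, edgeR adjusted p = 0.00109). FURIN, which cleaves PDGFA and PDGFB precursors, fell in LX2 (-0.40, adjusted p = 0.000538), and its kin PCSK7 fell as well (-0.47, adjusted p = 0.00121). In HCCLM3, FURIN rose (0.36, adjusted p = 0.0246) and PCSK7 was not called (-0.11, adjusted p = 0.692). LRP1, a scavenger receptor that partners PDGFRB, rose in LX2 (0.37, adjusted p = 0.000167) and in HCCLM3 (0.66, adjusted p = 0.0154). PLAU, the urokinase that opens PDGFD, fell in HCCLM3 (-0.92, adjusted p = 0.00212) and rose in LX2 (1.62, adjusted p = 0.0262). PDGFRL, a secreted receptor-like protein, rose in HCCLM3 (1.49, adjusted p = 0.0184). The proprotein convertase PCSK6 rose there too (0.68, adjusted p = 0.00374).

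Of 33 genes for signalling next to the receptor, 2 were called higher and 3 lower in HCCLM3 (median 0.037) and 5 higher and 9 lower in LX2 (median -0.10), shares below and above those of all genes (21.7% and 31.9%). The Src-family kinase FYN had 2246, 2459 and 2474 counts in LX2 with HCCLM3, against 1032, 1053 and 1115 in LX2 alone (log2 fold change 1.06, edgeR adjusted p = 5.52e-05). The transcription factor STAT3 fell in LX2 (-0.45, adjusted p = 0.000438). It rose in HCCLM3 (0.41, adjusted p = 0.0142), where the kinases SRC (-0.45, adjusted p = 0.00664) and AKT2 (-0.35, adjusted p = 0.0193) fell. Of 8 tested genes that damp the receptor, 1 was called higher and 2 lower in HCCLM3 (median -0.098) and 4 higher and 1 lower in LX2 (median 0.21). The ubiquitin ligase CBLB rose in LX2 (0.59, adjusted p = 0.000413), while the receptor phosphatase PTPRJ fell (-0.74, adjusted p = 0.0134). In HCCLM3 the caveolar protein CAV1 fell to 166593, 182202 and 168487 counts with LX2, against 344945, 349568 and 322347 alone (-1.0, adjusted p = 0.000326), and the ubiquitin ligase CBL rose (2.36, adjusted p = 0.00513). Among the related receptor kinases, KDR fell in HCCLM3 (-1.02, adjusted p = 0.00505), the only 1 of the 6 with enough counts there, and in LX2 1 of 3 tested, again KDR, was called higher, on 17, 34 and 51 counts with HCCLM3 against 0, 4 and 0 alone.

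**Figure D5:**
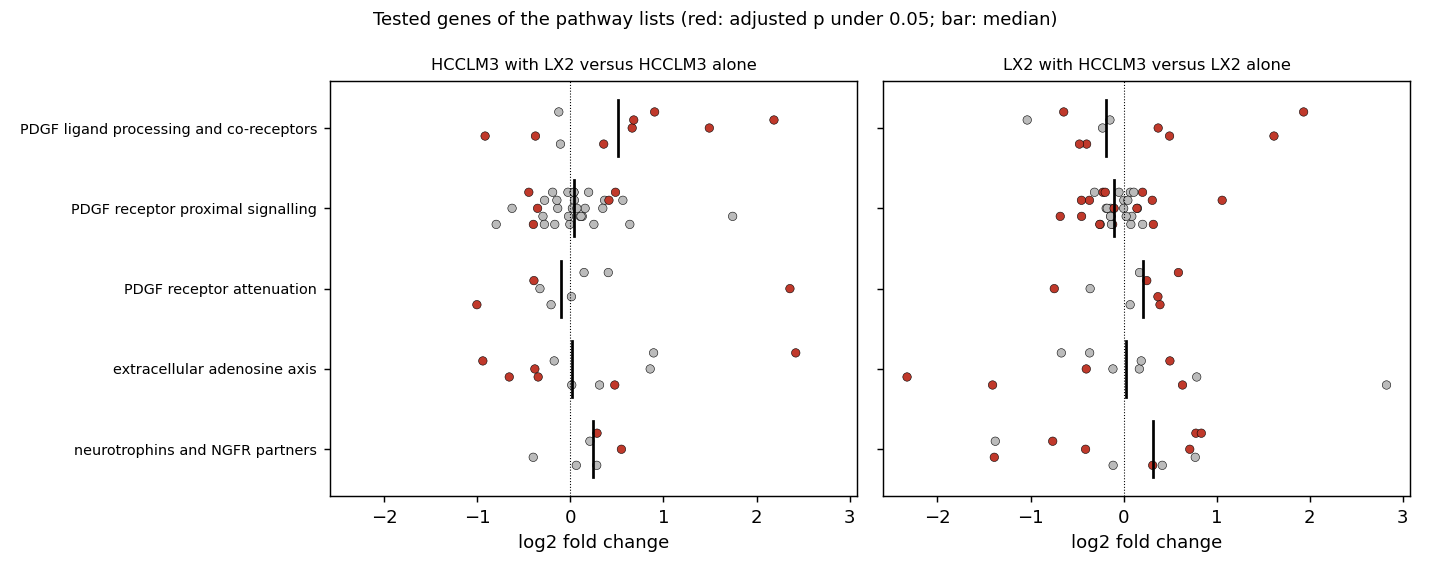
Log2 fold change of each tested gene in 5 lists around PDGF signalling, adenosine and NGFR, for HCCLM3 with LX2 over HCCLM3 alone (left) and LX2 with HCCLM3 over LX2 alone (right), with red points at an adjusted p under 0.05 and a bar at each list's median. Called genes lie on both sides of 0 in each LX2 list.

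NT5E sits in a chain of enzymes that make and clear extracellular adenosine. Of that list, 2 genes were called higher and 4 lower of 11 tested in HCCLM3, and 2 higher and 3 lower of 12 tested in LX2 (medians 0.015 and 0.027). The shares called over all genes tested were 21.7% in HCCLM3 and 31.9% in LX2. In LX2 with HCCLM3 the adenosine transporter SLC29A1 had 3172, 3604 and 3159 counts, against 7491, 8707 and 8269 in LX2 alone (log2 fold change -1.41, edgeR adjusted p = 0.000104). Adenosine kinase (ADK) fell in LX2 (-0.40, adjusted p = 0.000677), while adenosine deaminase (ADA; 0.63, adjusted p = 0.00328) and the receptor ADORA2B (0.50, adjusted p = 0.00586) rose. In HCCLM3, ENTPD2, which degrades extracellular ATP, had 684, 801 and 780 counts with LX2, against 120, 110 and 179 alone (2.42, adjusted p = 0.00181). DPP4, which anchors adenosine deaminase at the surface and is a close relative of FAP, fell there (-0.94, adjusted p = 0.000940), and ADORA2B fell as well (-0.66, adjusted p = 0.0249).

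A 12-gene panel used to define stromal cells was read beside NT5E and THY1. It holds proteins such cells carry and, as negative markers, blood cell proteins they lack, among them CD34, CD14 and HLA-DRA. In HCCLM3, 5 were called higher and 2 lower of 11 tested, and in LX2 1 higher and 4 lower of 10 tested. The shares called over all genes tested were 21.7% in HCCLM3 and 31.9% in LX2. Of the 5 higher in HCCLM3, 3 were those negative markers and the others VCAM1 and ENG. HLA-DRA and CD34 were at 0 counts in HCCLM3 alone and entered the test only through the libraries with LX2. VCAM1 was at 0 counts in LX2 alone and entered the LX2 test only through the libraries with HCCLM3. In LX2 with HCCLM3 the aminopeptidase ANPEP (CD13) had 423, 492 and 429 counts, against 1242, 1198 and 1244 alone (log2 fold change -1.56, edgeR adjusted p = 5.08e-05), and the adhesion proteins ALCAM (-0.64, adjusted p = 0.000133) and MCAM (-0.54, adjusted p = 0.0189) fell too. VCAM1, the single rise, had 12, 21 and 12 counts with HCCLM3 and 0 in each library alone. In HCCLM3 ANPEP (-0.47, adjusted p = 0.0108) and ALCAM (-0.49, adjusted p = 0.0119) fell, and VCAM1 had 534, 741 and 652 counts with LX2, against 212, 180 and 83 alone (2.01, adjusted p = 0.00681). The class II antigen HLA-DRA had 39, 115 and 62 counts in HCCLM3 with LX2 and 0 in each library alone, beside the blood cell genes given above. CD34 had 28, 19 and 27 counts with LX2 and 0 in each library alone, and CD14 had 138, 164 and 133 counts, against 91, 55 and 57 alone (1.07, edgeR adjusted p = 0.0327). The stromal marker ENG (CD105) had 134, 140 and 152 counts with LX2, against 23, 16 and 46 alone (2.26, edgeR adjusted p = 0.0154).

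Of the neurotrophins and partners of NGFR, 2 of 6 tested were called higher and 0 lower in HCCLM3, and 4 higher and 3 lower of 11 tested in LX2. The shares called over all genes tested were 21.7% in HCCLM3 and 31.9% in LX2. The co-receptor SORT1 had 5390, 5264 and 5525 counts in LX2 with HCCLM3, against 8568, 8448 and 8494 in LX2 alone (log2 fold change -0.76, edgeR adjusted p = 6.80e-05), and its relative SORCS2 fell (-1.39, adjusted p = 0.000306). The NGFR adaptor BEX3 fell in LX2 (-0.41, adjusted p = 0.000142) and rose in HCCLM3 (0.55, adjusted p = 0.0102), and MAGED1 rose in both (0.78, adjusted p = 0.000775, and 0.29, adjusted p = 0.0186). Of the 6 Schwann and neural crest markers, read because NGFR marks those cells, 1 of 2 tested was called higher in HCCLM3 and 1 of 3 in LX2, and SOX10 was at 0 counts in all 4 groups.

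Of the binding partners of THY1 and FAP, 4 were called higher and 2 lower of 10 tested in HCCLM3, and 2 higher and 3 lower of 10 in LX2. The shares called over all genes tested were 21.7% in HCCLM3 and 31.9% in LX2. Fibronectin (FN1) rose in both, by 1.24 on the log2 scale in HCCLM3 (edgeR adjusted p = 0.00221) and 0.75 in LX2 (adjusted p = 1.18e-05). The integrin gene ITGAV had 10728, 11518 and 11862 counts in LX2 with HCCLM3, against 18715, 18573 and 18469 in LX2 alone (-0.82, adjusted p = 1.32e-05), and rose in HCCLM3 (0.61, adjusted p = 0.0156). ITGB5 fell in LX2 (-0.74, adjusted p = 1.49e-05) and in HCCLM3 (-0.42, adjusted p = 0.00983). Of the stellate cell and fibroblast markers in LX2, 4 were called higher and 5 lower of 15 tested, with COL1A1 up (1.44, adjusted p = 4.86e-06) and BAMBI (-1.15, adjusted p = 2.73e-05) and NES (-0.92, adjusted p = 0.000228) down. COL6A3, which had 3583, 4446 and 4232 counts in HCCLM3 alone, had 160, 134 and 153 counts in LX2 with HCCLM3 and 0 in each library of LX2 alone.

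For each member that reached 1 FPKM in some group, the most similar genes over the 12 libraries were sought among 14058 genes, by Pearson's r of log2(CPM + 1). The libraries come from 2 lines, so a high r can be mainly a shared difference between lines, and no test was made. PDGFRB was closest to PTK7 (r = 0.999) and MBOAT2 (0.998), and PDGFC to SPOCK1 (0.998) and REEP1 (0.998). PDGFB was closest to OTUD3 (0.993) and C1RL-AS1 (0.993), and NT5E to AKR1C2 (0.997) and HSPA1B (0.995), whose counts are uncertain because a near-identical copy exists. PDGFA, which varies least between the lines, reached 0.876 with PPP6C and 0.871 with FARS2.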

How the data were processed

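Per the labels' protocols, polyadenylated RNA of 12 libraries was sequenced from both ends. The submitters' processing notes name HISAT2 2.0, StringTie 1.3.0 and Bowtie 0.12.2, with no roles, and a mouse build, mm8. The gene identifiers are human: 58394 of those in the HCCLM3 table were in GENCODE release 29, 90.6% of them with the same chromosome and start or end, so coordinates were taken as GRCh38. The tables deposited by the authors hold, per the file headers, a raw count and an FPKM value per gene and library, in 1 table per line, and 0 measured columns were left without a sample. A count of 0 was read as 0 FPKM, and genes absent from the LX2 table were taken as 0 counts.

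Counts were tested with edgeR 4.0.16 (R 4.3.3; TMM, filterByExpr with minimum count 10 and minimum total 15, quasi-likelihood test, two-sided, Benjamini-Hochberg over all genes), in 1 fit per line, and over all 12 libraries for the difference between lines. Alternatives used DESeq2 1.42.0, limma 3.58.1, other scalings, no filter, a replicate block and leaving out each library. The scripts were tested on simulated counts. The members and the 16 gene lists were chosen with earlier results of these data known, and they support nothing independently. The text names all 10 members, up to 4 tested genes per list and line with the smallest p (some are not reported here), list genes at 0 counts, and the 2 genes most like each member. Other genes, named for collagens and other matrix, keratin, vimentin, platelets, the stromal panel and blood cells, were chosen after their values were seen. Figures were drawn with matplotlib 3.10.9.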

Additional observations from a re-analysis of the deposited data

Results flagged for a closer look

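For NT5E the change with co-culture differed between the 2 lines by a direct test of that difference: 1.02 on the log2 scale, HCCLM3 minus LX2 (edgeR quasi-likelihood test over 12 libraries, adjusted p = 0.000225). NT5E stood at 1.96 ± 0.126 FPKM in LX2 with HCCLM3 and 4.50 ± 0.475 FPKM in LX2 alone, and at 14.9 ± 0.143 FPKM in HCCLM3 with LX2 and 15.1 ± 1.54 FPKM in HCCLM3 alone (SD, n = 3 each).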

How the results depend on the processing

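In LX2 the rise of PDGFB and the fall of NT5E passed the test in every setting tried, and the fall of PDGFC in every setting except 1 fit over all 12 libraries. That fit called 3746 genes and 2 members in LX2, against 6281 and 4. Over 8 other settings PDGFB in HCCLM3 failed only with the replicate block (1.18, adjusted p = 0.0532), and PDGFRB in LX2 failed in 5 of 8: without a filter (adjusted p = 0.0501), limma with both pseudocounts (0.0779 and 0.0741), the block (0.0715) and the 12-library fit (0.839).

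Leaving out 1 library at a time, 1918 to 2928 genes were called in HCCLM3 (2264, 2522 and 1918 without HCCLM3 with LX2 replicate 1, 2 and 3, and 2574 without HCCLM3 alone replicate 3) and 0 to 1 members, 4934 to 5209 genes and 3 to 5 members in LX2, and 3580 to 4438 genes and 1 to 3 members for the difference between lines (3 without HCCLM3 alone replicate 3). Log2 fold changes that turned ran over -0.068 to 0.21 (PDGFA), -0.99 to 7.29 (PDGFRA) and -0.23 to 2.20 (PDGFRB) in HCCLM3, over -0.063 to 0.20 (PDGFA) and -1.50 to 0.0073 (NGFR) in LX2, and for the difference over -0.18 to 0.0998 (PDGFA), -5.20 to 1.5 (PDGFC) and -1.58 to 5.06 (FAP).

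For the difference, 2 members were called with limma at either pseudocount and with the block. It reversed for PDGFA with library totals (0.12), for PDGFA (0.062), PDGFB (-0.071), PDGFC (0.78), PDGFRA (-0.0011) and FAP (0.079) with limma on log2(FPKM + 1), and for PDGFA (0.11), PDGFC (0.92) and FAP (0.22) with log2(FPKM + 0.1). The cause was not tested. The replicate numbers pair nothing by the labels: deviations of same-numbered libraries correlated at 0.017, 0.045 and 0.023 in HCCLM3 and -0.039, 0.011 and -0.041 in LX2, although each HCCLM3 library correlated best with its own number. With a replicate block 3315, 4795 and 4439 genes and 0, 3 and 2 members were called in HCCLM3, LX2 and the difference, PDGFRA in HCCLM3 turned to 1.26 and the PDGFRB difference passed (1.09, adjusted p = 0.0468). Depth limits PDGFD, PDGFRA, THY1 and NGFR, and PDGFC, PDGFRB and FAP in HCCLM3.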
